A study of Homo sapiens and Mus musculus with 61 samples.

Results

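The alpha-globin locus lies near the end of the short arm of chromosome 16. The regions described here are those on that chromosome (hg19) whose centre lies between positions 100000 and 250000, a window that holds HBZ (embryonic zeta-globin), HBA1 (adult alpha-globin), HBQ1 (theta-globin) and the enhancers upstream of them. Over 17 tables there were 44 such entries of 143198, each a 300 bp region in 1 table. They have 35 distinct coordinates and merge into 11 sites. They were taken from the listed regions by position, with earlier results of these data known. How the authors chose the regions that each table lists is not given in the sources used here. A region may thus be listed because its signal was high with that guide, which was not tested.

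The study recovered DNA bound by dCas9, a Cas9 that cannot cut, by its biotin tag (CAPTURE-ChIP-seq). The cells were K562, an established erythroid leukaemia line in which HBZ is active, and all libraries carry the biotinylated dCas9 with a guide RNA, the sgGal4 controls included. Each of the 17 tables sets 1 guide or guide pool against the same 4 libraries of sgGal4, a guide with no intended target in human DNA. The guides sgHS1 to sgHS5 and their second versions (ending in -sg2) are named for hypersensitive sites of the beta-globin locus control region. sgHS1-5 names a pool of these, sgHBB, sgHBB-sg2, sgHBG, sgHBG-sg2 and sgHBD-1kb are named for beta-like globin genes, and sg3'HS1 for the site at the far end of that cluster. These targets lie on chromosome 11, so the alpha-globin window holds no intended target, and the authors' tags for on-target and off-target regions mark 0 of the 44 entries. Libraries per guide were 6 for sgHS1-5, 5 for sgHS2, 4 for sgHBG, 3 for sgHS3 and sgHS5, 1 for sgHBB, sgHS2-sg2 and sgHS3-sg2, and 2 for each of the others. The labels do not say that replicates are separate cultures, or whether a line is 1 clone, so p-values measure only the spread between libraries.

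Alpha-like globin genes are ordered along the chromosome from the embryonic HBZ to the adult pair HBA2 and HBA1, with HBM (mu-globin) and HBQ1 beside them. Their enhancers lie far upstream, mostly in introns of NPRL3, a gene for a subunit of the GATOR1 complex that is not itself a globin gene. The strongest of these in red cells is HS-40, which binds GATA1, NF-E2 and proteins that recognise CACCC boxes. Weaker elements are known as HS-33 and HS-10, and CTCF sites further out border the domain.

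The listed regions sit at these elements as well as between them, and 4 are printed here to show the element letters that each of them holds. They were read from the GRCh37 assembly, plus strand, 5′ to 3′. Capitals mark matches on either strand to letters that known factors recognise. The GATA motif was searched as AGATAA and the box bound by KLF factors as CACCC. NF-E2 and AP-1 proteins recognise TGAGTCA, searched as such. The CTCF-like pattern was the central part of the CTCF motif, from its CC to its GGC with AG between, the other bases left free. A second GATA form, TGATAA, was also searched and matched none of the 4.
NPRL3 intron, 55.6 kb upstream of HBZ, chr16:146894-147193: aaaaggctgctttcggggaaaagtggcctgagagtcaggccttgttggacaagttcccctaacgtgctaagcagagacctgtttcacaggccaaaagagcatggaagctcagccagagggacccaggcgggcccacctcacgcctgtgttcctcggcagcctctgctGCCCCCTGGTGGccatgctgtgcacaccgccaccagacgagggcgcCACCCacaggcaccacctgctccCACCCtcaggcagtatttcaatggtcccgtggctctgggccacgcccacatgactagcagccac
NPRL3 intron, 45.5 kb upstream of HBZ, chr16:157000-157299: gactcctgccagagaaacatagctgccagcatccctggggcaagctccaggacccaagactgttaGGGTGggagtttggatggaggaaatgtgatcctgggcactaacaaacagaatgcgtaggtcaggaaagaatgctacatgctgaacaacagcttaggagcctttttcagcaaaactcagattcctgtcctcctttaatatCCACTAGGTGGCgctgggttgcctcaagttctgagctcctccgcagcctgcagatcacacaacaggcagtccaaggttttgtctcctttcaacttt
HS-33 position, NPRL3 intron, chr16:169921-170220: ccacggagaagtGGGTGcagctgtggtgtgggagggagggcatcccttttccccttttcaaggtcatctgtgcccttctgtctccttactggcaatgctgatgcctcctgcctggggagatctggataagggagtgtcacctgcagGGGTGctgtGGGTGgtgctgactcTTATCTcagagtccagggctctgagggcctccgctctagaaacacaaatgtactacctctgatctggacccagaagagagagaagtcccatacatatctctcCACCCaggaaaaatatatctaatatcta
past the end of HBQ1, chr16:231273-231572: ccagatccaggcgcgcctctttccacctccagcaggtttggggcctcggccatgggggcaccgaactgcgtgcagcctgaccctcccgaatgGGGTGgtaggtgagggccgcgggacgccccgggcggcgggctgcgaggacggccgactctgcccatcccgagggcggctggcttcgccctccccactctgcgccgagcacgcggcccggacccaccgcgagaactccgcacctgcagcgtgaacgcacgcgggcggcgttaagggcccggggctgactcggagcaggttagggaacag

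Among the 4 printed regions, the one 55.6 kb upstream held 1 CTCF-like match and 2 CACCC matches, and the one 45.5 kb upstream held 1 of each. The HS-33 region held 1 AGATAA and 4 CACCC matches, and the region past the end of HBQ1 held 1 CACCC match. Other listed regions of these sites differed. The HS-33 region chr16:170135-170434 held no AGATAA. Past the end of HBQ1, chr16:231308-231607 held 1 CTCF-like match, and on HBQ1, chr16:230828-231127 held 1 AGATAA. No HS-40 region is among the 4. Of the 91133 distinct regions of all tables, 13.3% hold AGATAA, 9.49% TGATAA, 60% CACCC, 7.26% TGAGTCA and 27.0% the CTCF-like pattern. A match is a string of letters and does not show binding. GC content of the 11 sites ran from 50.3% to 76.0%, against a median of 57.7% over all distinct regions.

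**Figure D1:**
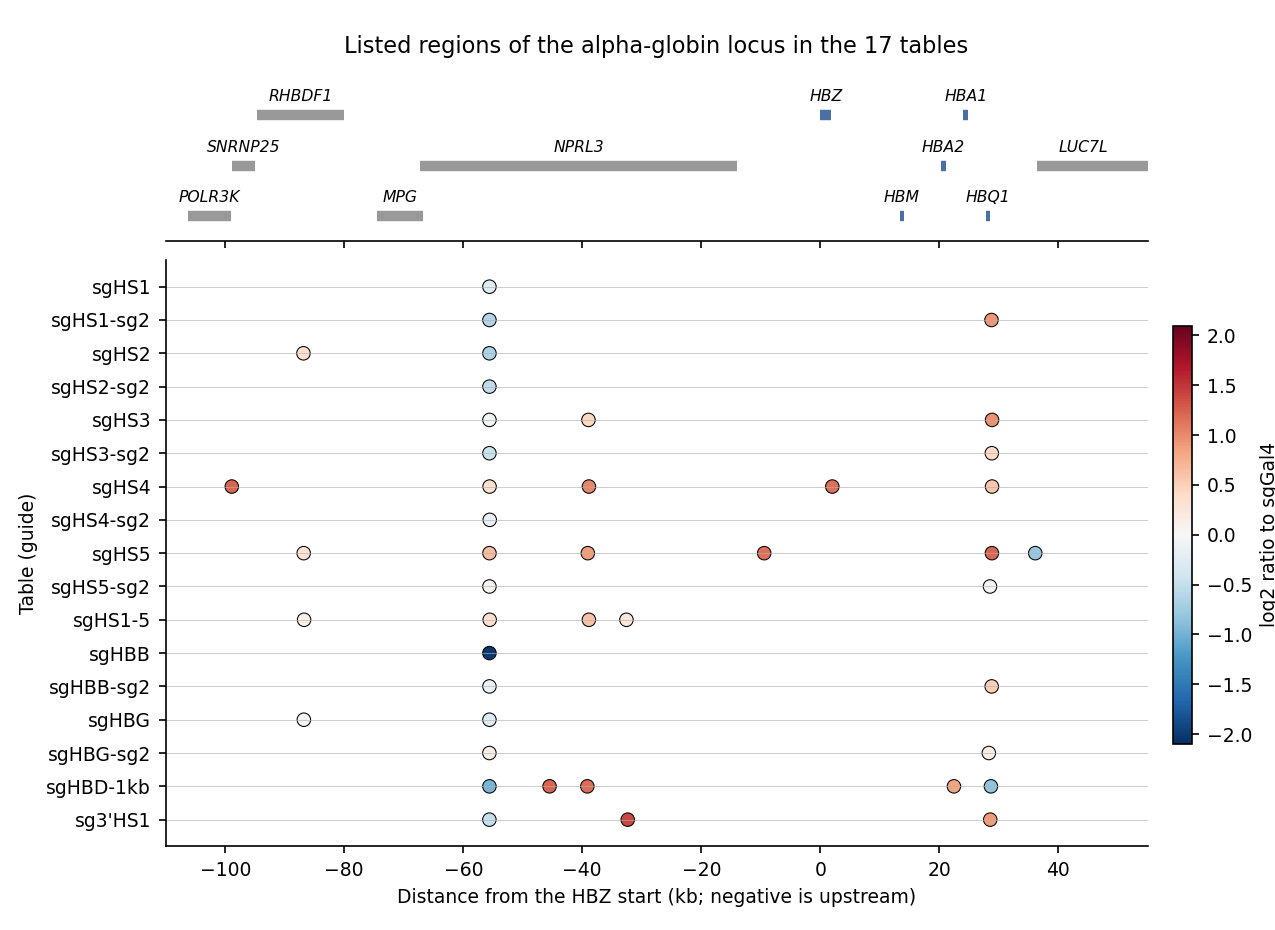
Position of each listed region (x axis, kb from the HBZ start) in each of the 17 tables (y axis), coloured by log2 ratio to sgGal4, with genes drawn above; blue genes are alpha-like globins. A column of points 55.6 kb upstream of HBZ runs through all 17 tables, and no point lies on HBA2 or HBA1.

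No region of the alpha-globin window differed from sgGal4 in any table at a limma adjusted p below 0.05: 0 of 44 were called, with adjusted p between 0.061 and 0.981. Of all 143198 entries, 1.66% were called higher and 11.2% lower. At an unadjusted p below 0.05 there were 2 of 44 (4.55%), against 31.5% of all entries. The recomputed log2 ratio, the log2 of the mean linear guide level over the mean linear sgGal4 level, ran from -2.03 to 1.41 with a median of 0.31, against 0.08 over all entries. It was positive in 28 entries and negative in 16.

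A log2 ratio of 1 or more was seen in 8 of 44 entries (18.2%), against 17.3% of all entries. The 17 entries of the site 55.6 kb upstream of HBZ held 0 of these, and the other 27 held 8 (29.6%). All 8 were in the sgHS4, sgHS5, sgHBD-1kb and sg3'HS1 tables. Of all regions there, 12.6%, 17.2%, 30.1% and 30.6% had such a ratio, in that order. Without 1 sgGal4 library the count ran from 3 (13.3% of all entries) to 16 (24.9%). A ratio of -1 or less was seen in 1 (2.27%), against 25.3% of all entries. All guide libraries lay above all sgGal4 libraries in 6 entries (13.6%, against 14.5% of all), and all below in 1 (against 23.5%). Within their own tables the 44 ratios stood between the 13.9th and the 93rd percentile, with a median at the 60.5th. The limma standard errors were 0.38 to 1.01 on the log2 scale, and 42 of 44 95% intervals of the difference in mean log2 level included 0.

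Read numbers behind these values were small. Reads recovered from the deposited levels numbered 0 to 71 per region and guide library (median 9) and 0 to 34 per region and sgGal4 library (median 3). Per table, the listed regions took 6499 to 18647 reads from sgGal4 replicates 3 and 4, against 41128 to 169968 from replicates 1 and 2. In those shallow libraries 27 of 70 values over the 35 regions were 0 reads, and the deposited scale places these at a log2 level of 1.96 to 3.68. Between sgGal4 replicates 1 and 2 a chi-square test of the counts found no difference beyond sampling noise in 16 of 17 tables (chi-square per degree of freedom 0.94 to 1.04), the exception being sgHS5 (p = 0.0346). Pairs of replicate 1 or 2 with 3 or 4 gave 1.74 to 10.36, and 3 and 4 were not compared. Ratios and limma p-values use all 4 sgGal4 libraries unless stated, so they do not follow from the means ± SD. Replicates 1 and 2 were counted as 1 sample in every mean ± SD of sgGal4 below (n = 3). With them as 1 library in the fit too, 0 of 44 were called (lowest limma adjusted p 0.0979), 2 had an unadjusted p below 0.05, and 4 (9.09%) reached a ratio of 1, against 13.3% of all entries. With sgGal4 replicates 3 and 4 left out, 12 of 44 were called by limma, 10 higher and 2 lower, against 24.4% higher and 14.4% lower of all entries; the 2 controls left are the pair counted as 1 sample.

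**Figure D2:**
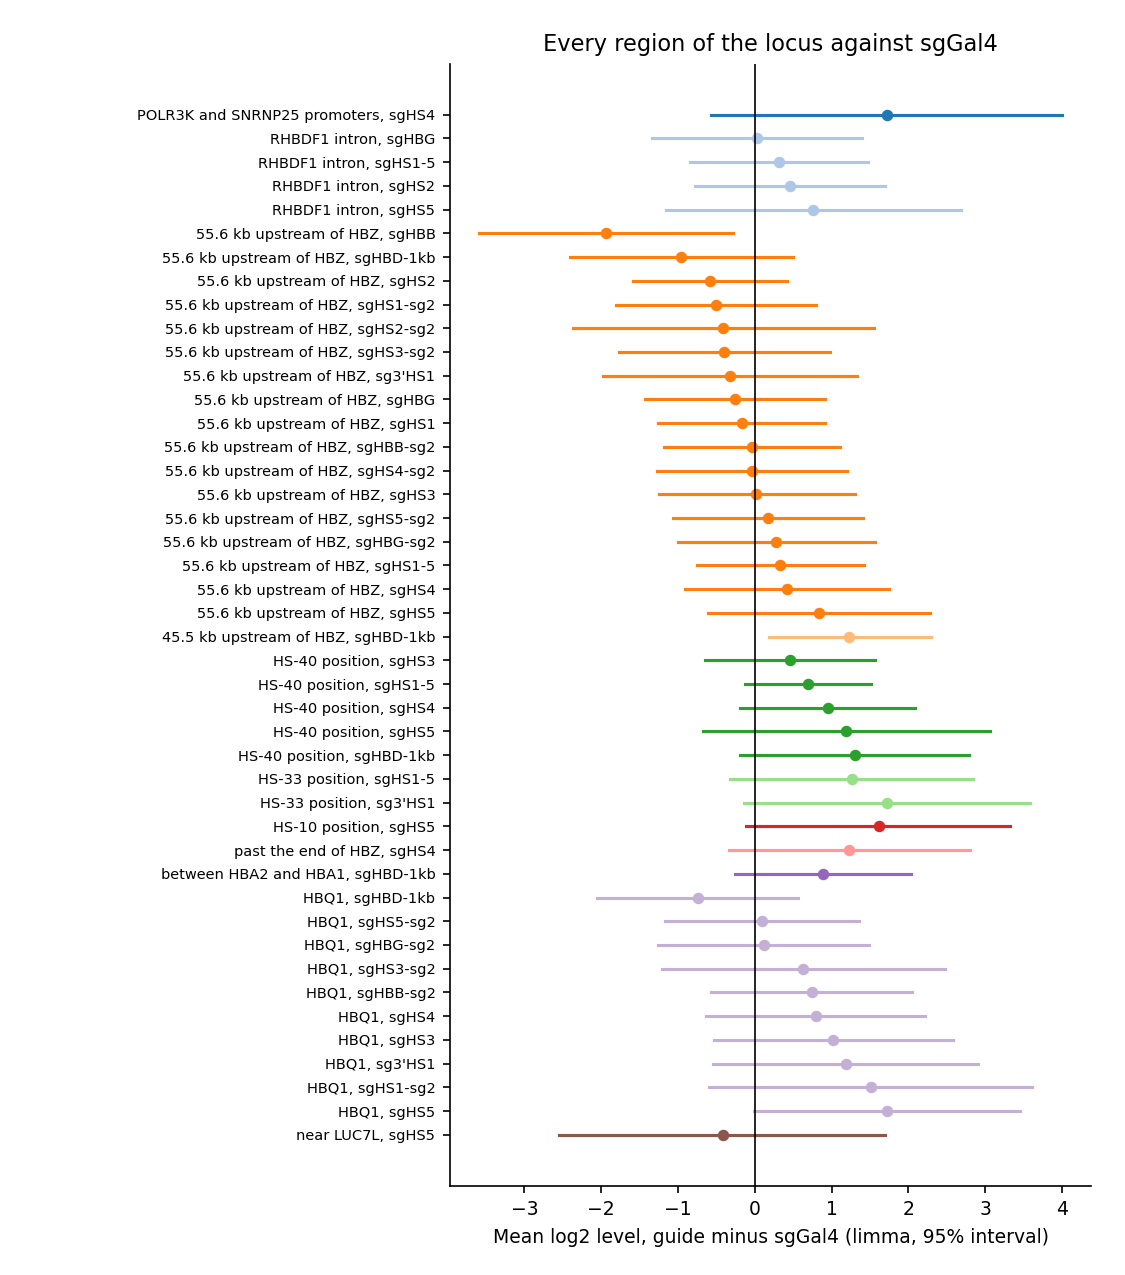
Difference in mean log2 level, guide minus sgGal4 (x axis), for each of the 44 entries (y axis), with points for the limma estimate, bars for its 95% interval and colours for the 11 sites. Of the bars, 42 cross 0; those clear of it are sgHBB 55.6 kb upstream of HBZ and sgHBD-1kb 45.5 kb upstream.

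HS-40, the main alpha-globin enhancer, was listed in 5 tables, in regions spanning chr16:163346-163917, 38.9 to 39.1 kb upstream of the HBZ start. Its log2 ratio to sgGal4 was positive in all 5 on the deposited levels, from 0.44 to 1.18 with a median of 0.88. The median over all regions was also positive in each of these tables, from 0.13 (sgHS3) to 0.48 (sgHS1-5). The HS-40 entries stood at the 58.6th to 87.9th percentile of their tables. None of the 5 passed the limma test (adjusted p 0.149 to 0.502). The 5 comparisons share the sgGal4 libraries. On recovered reads the count depended on the pseudocount. With one scaled to library size the ratio was positive in 5 of the 5 (median 0.75), with a fixed 1 in 3 (median 0.06) and with a fixed 5 in 0 (median -0.84). The fixed pseudocounts also lowered the median over all regions of a table, whose median over tables went from -0.17 to -0.44 and -0.86.

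With sgHBD-1kb the HS-40 region had 16 and 6 reads in the guide libraries and 1, 11, 0 and 1 in sgGal4 replicates 1 to 4. The mean log2 level was 3.64 ± 0.63 (SD, n = 2) against 2.48 ± 0.63 (n = 3), a ratio of 1.18, with a limma adjusted p of 0.149. Both guide libraries lay above every sgGal4 library on the log2 scale. The lower, replicate 2, was only just above, at 3.2 against 3.16 in sgGal4 replicate 4, which had 1 read. By share of reads that guide library held 8.81 per 100000, below the 10.6 of sgGal4 replicate 2. With sgHS4 there were 27 and 2 reads against 3, 7, 0 and 0. The mean levels were 4.32 ± 0.69 (n = 2) and 3.42 ± 0.19 (n = 3). Over the 4 sgGal4 libraries the ratio was 1.02 with a limma adjusted p of 0.377. With sgGal4 replicates 1 and 2 as 1 library these were 0.97 and 0.598. The groups did not overlap here either, yet the guide library with 2 reads stood only just above the highest control, at a log2 level of 3.83 against 3.55. That highest control had 0 of 12600 reads, which allows up to 23.8 reads per 100000, above the 12.8 per 100000 of the deeper guide library; the excess was not detectable at that depth.

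With sgHS5 the HS-40 region held 4, 43 and 18 reads against 1, 14, 0 and 1, a ratio of 0.88 (limma adjusted p 0.489). Guide levels of 2.32, 3.66 and 3.17 overlapped sgGal4 levels of -0.25, 2.65, 1.99 and 3.05. With sgHS3 there were 8, 2 and 6 reads against 4, 13, 0 and 1, a ratio of 0.44 (limma adjusted p 0.502), and the groups overlapped. In the pool sgHS1-5, reads ran from 1 to 27 in the 6 guide libraries and 0 to 11 in the controls, a ratio of 0.61 with a limma adjusted p of 0.24. An exact two-sided permutation test over the 10 libraries gave p = 0.0333 for this region, 0.266 after Benjamini-Hochberg adjustment over the 8 such tests run in tables with 4 or more guide libraries. With sgGal4 replicates 1 and 2, and pool replicates 1 and 2, as 1 library each, the exact permutation p was 0.125 (adjusted 0.893). Those pool replicates were close (chi-square per degree of freedom 1.06), though the chi-square test found a difference (p = 5.41e-06).

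**Figure D3:**
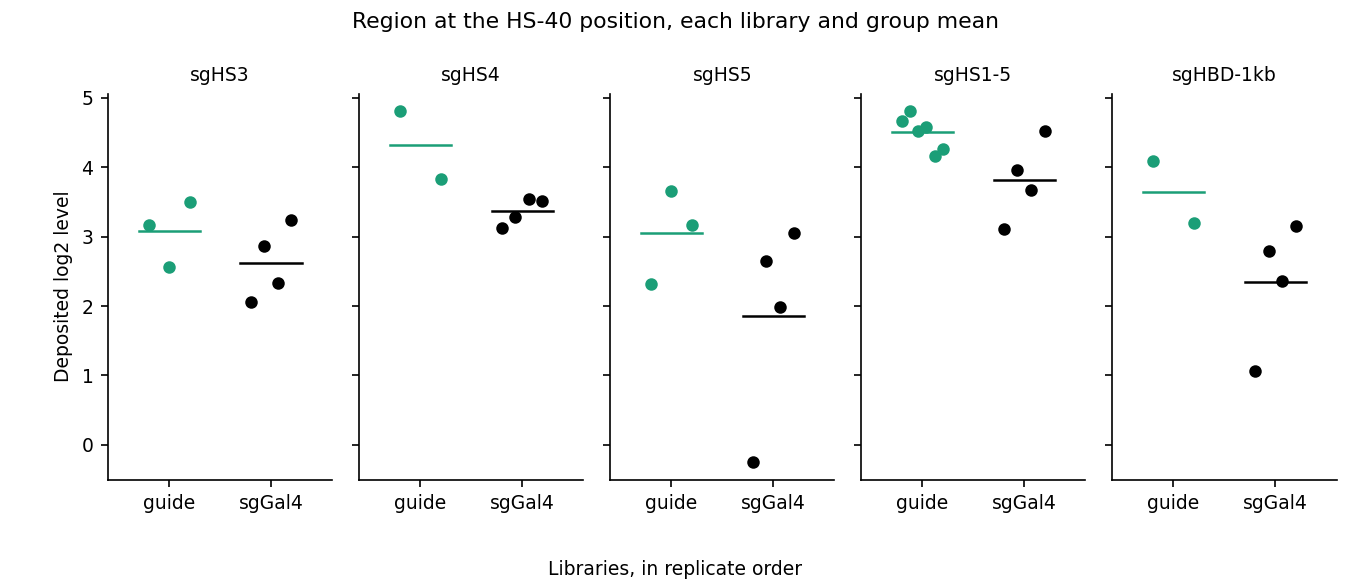
Deposited log2 level at the HS-40 position (y axis) in each guide library (green) and each sgGal4 library (black) of the 5 tables that list it, with lines for group means over all libraries drawn. In sgHS4 and sgHBD-1kb the groups do not overlap; in the other 3 tables they do. Levels are normalised separately in each table.

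The weaker upstream elements were listed less often. HS-33, 32.4 to 32.6 kb upstream of HBZ (chr16:169921-170434), appeared in 2 tables. With sg3'HS1 it gave the highest ratio of the window, 1.41, from 18 and 2 reads against 3, 1, 1 and 0. The mean level was 4.01 ± 0.33 (n = 2) against 2.57 ± 1.02 (n = 3), with both guide libraries above all controls and a limma adjusted p of 0.188. The lower guide library stood at 3.78 from 2 reads, against 3.52 for the highest control, sgGal4 replicate 3 with 1 read. By share of reads it lay below that control, at 7.12 against 8.25 per 100000. Of all regions tested with that guide, 30.6% had a ratio of 1 or more. With the pool the HS-33 ratio was 0.26, from 12, 22, 1, 0, 5 and 0 reads against 0, 1, 0 and 3 (limma adjusted p 0.258). Without sgGal4 replicate 4, the control with 3 reads, that ratio was 1.66 with a limma adjusted p of 0.0465. Of all entries, 3.52% were then called higher and 8.32% lower. That fit kept sgGal4 replicates 1 and 2 as separate controls. With replicate 4 kept and replicates 1 and 2 as 1 library, the ratio was -0.11 (limma adjusted p 0.618).

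HS-10, 9.4 kb upstream of the main HBZ start (chr16:193074-193373) and on an untranslated exon of a longer HBZ transcript, was listed with sgHS5 alone. It held 7, 30 and 18 reads against 1, 6, 1 and 0. Its levels of 3.0, 3.06 and 3.17 lay close together, while the controls ran from -0.25 to 3.03, so the groups overlapped at one control. The mean levels were 3.08 ± 0.09 (n = 3) and 1.81 ± 1.30 (n = 3), a ratio of 1.16 with a limma adjusted p of 0.345. Guide replicates 2 and 3 were close over all regions (chi-square per degree of freedom 1.04), though the chi-square test found a difference (p = 0.000103). They were kept as 2 libraries here and counted as 1 only in an alternative fit. The guide SD may therefore understate the spread between separate samples. Of all regions tested with sgHS5, 17.2% had a ratio of 1 or more.

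The NPRL3 intron region 45.5 kb upstream of HBZ (chr16:157000-157299) was listed with sgHBD-1kb alone. It had 12 and 11 reads against 6, 12, 0 and 0. The mean level was 3.83 ± 0.19 (n = 2) against 2.52 ± 0.29 (n = 3), a ratio of 1.22. Both guide libraries lay above all controls, with an unadjusted limma p of 0.0268 and an adjusted p of 0.0743, the lowest among the positive ratios. Of all regions tested with sgHBD-1kb, 30.1% had a ratio of 1 or more.

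The NPRL3 intron site 55.6 kb upstream of HBZ (chr16:146885-147244) was the one member present in all 17 tables, at 8 distinct coordinates, 10 tables listing the same 300 bp. All 8 hold the CTCF-like letters. Its ratio was negative in 12 tables and positive in 5, from -2.03 (sgHBB) to 0.65 (sgHS5) with a median of -0.25. Medians over all regions of a table ran from -1.53 (sgHBB) to 0.48 (sgHS1-5), and their median over tables was -0.17. The site stood between the 28.8th and the 78.5th percentile of its tables. None of the ratios at the site passed the limma test, with adjusted p of 0.061 to 0.976. The tables share the controls, so the ratios are not independent.

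The most negative ratio of the window was that of sgHBB at this site. Its single guide library held 4 reads against 14, 29, 3 and 0 in sgGal4, a log2 level of 2.32 against 4.15 ± 0.74 (n = 3). That library lay below all controls, with an unadjusted limma p of 0.0282 and an adjusted p of 0.061. With 1 guide library that p rests on the spread of sgGal4 alone. The median ratio over all regions of the sgHBB table was -1.53, and the site stood at the 35.1st percentile there. The next lowest was sgHBD-1kb at the same site, with 8 and 2 reads against the same controls, a ratio of -0.98 and a limma adjusted p of 0.245. There the groups overlapped, since sgGal4 replicate 4 held 0 reads at a log2 level of 2.35, between the guide levels of 3.17 and 1.98. The highest, sgHS5, held 15, 71 and 37 reads, with levels of 4.0, 4.5 and 4.35 against 3.75, 4.0, 4.07 and 1.96 in sgGal4.

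**Figure D4:**
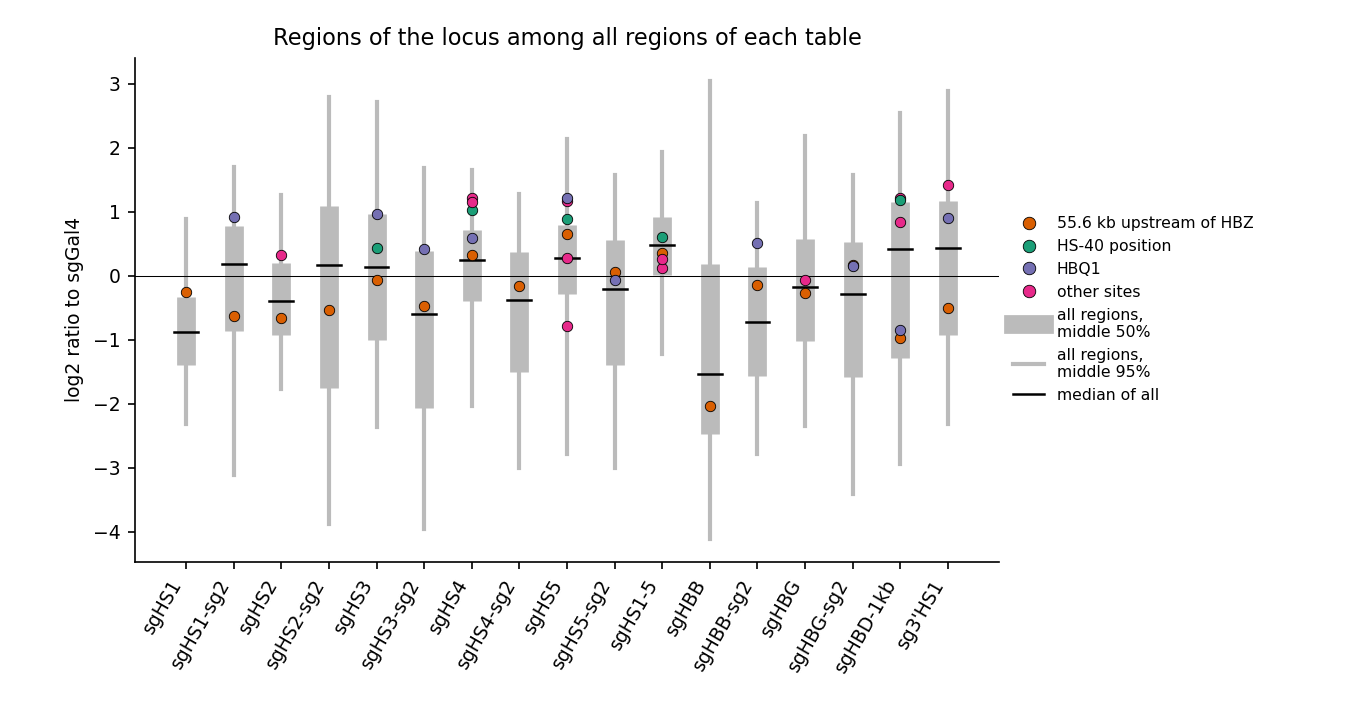
Log2 ratio to sgGal4 (y axis) of the regions of the locus (points) in each table (x axis), over the middle 50% (thick bars), the middle 95% (thin bars) and the median (black lines) of all regions in the table. The points lie inside the thin bars, and the sgHBB point at -2.03 lies below a table median of -1.53.

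Being in every table, this site could also be described over the 3744 loci listed once in all 17 tables (8.38% of 44682 merged loci, the beta-globin cluster left out), on recovered reads set across tables that the authors normalised separately. In the 42 guide libraries it took 0 to 11.7 reads per 10000 in those loci, with a median of 5.78. The sgGal4 libraries gave 3.66, 4.35, 4.9 and 0 per 10000. Of the guide libraries, 29 lay above the highest control, as did a median of 5 at the other loci, 5.82% of which had 29 or more. The highest control here rests on 3 reads (exact 95% interval 1.01 to 14.3 per 10000), and on the deposited levels the ratio was negative in 12 of the 17 tables. By reads, the site stood at the 81.5th, 91.3rd and 79.4th percentile of the loci in sgGal4 replicates 1, 2 and 3, and replicate 4 held 0 reads. The order of guide medians ran from 2.47 (sgHBB) and 3.91 (sgHS2) up to 7.92 (sgHBG-sg2) and 8.54 (sgHS5). The exact Clopper-Pearson 95% interval of the sgHBB library, 0.673 to 6.32, overlapped that of the deepest sgHS2 library, 1.88 to 7.2. Among the sgHS5 libraries, the interval of the deepest, 7.17 to 11.6, did not overlap that of sgHBB. Those of sgHS5 replicates 1 and 3 did overlap that of sgHBB. The guides sgHBB and sgHS5 are the ends of an order made on these same values. These intervals cover counting error only.

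**Figure D5:**
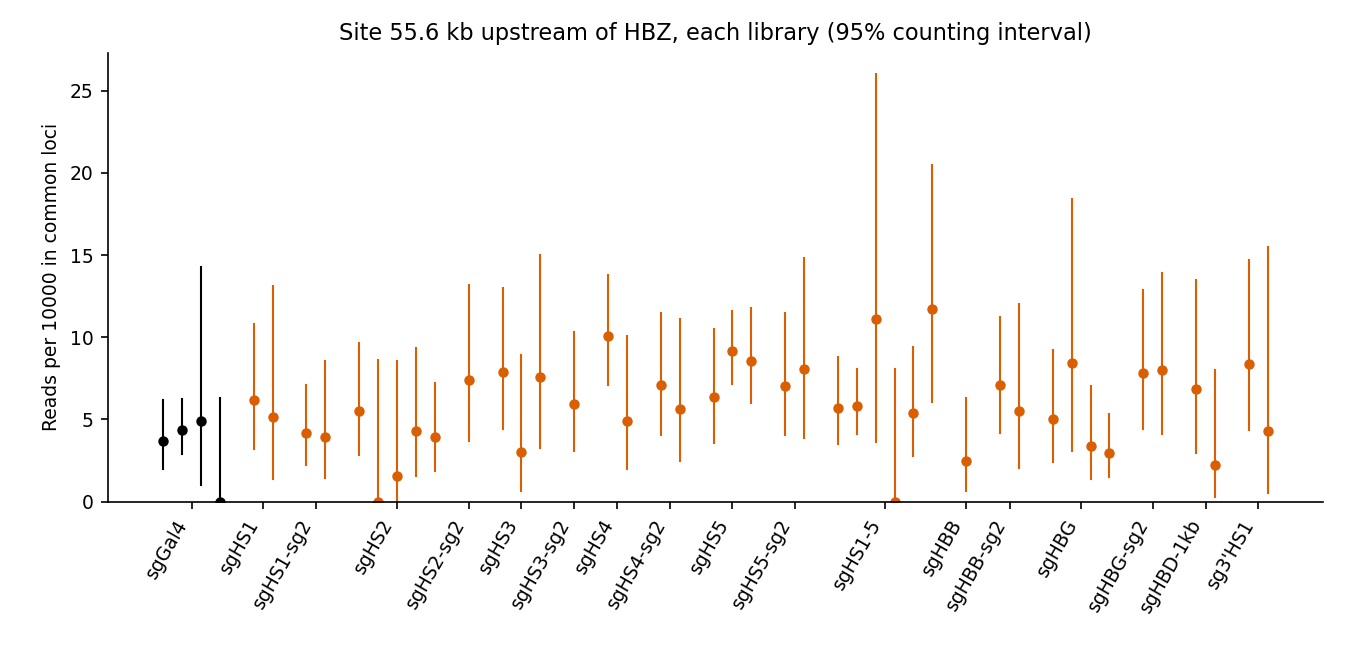
Reads per 10000 at the site 55.6 kb upstream of HBZ (y axis) in each of 42 guide libraries (orange) and 4 sgGal4 libraries (black), with exact 95% counting intervals. Guide libraries run from 0 to 11.7 and sgGal4 libraries from 0 to 4.9, and most intervals overlap.

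The loci whose share of reads followed this site most closely over the 42 guide libraries were at the starts of NUF2 (a kinetochore protein; chr1:163291425-163291894, Spearman rho 0.59), ZNF708 (a zinc finger protein; rho 0.58) and SNRPD1 (a spliceosome core protein; rho 0.54). These are given as a description only: they are the 3 highest values picked out of 3743, whose median rho was 0, and the libraries share depth differences and guides.

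Of the globin genes themselves, HBQ1 was the best covered. HBQ1 codes for theta-globin, a little expressed member of the cluster. Regions at chr16:230828-231668 were listed in 10 tables, all at distinct coordinates, of which 4 overlap an exon of HBQ1 and 6 lie past its end. The log2 ratio was positive in 8 tables and negative in 2, from -0.85 to 1.22 with a median of 0.55. Medians over all regions of these tables ran from -0.72 (sgHBB-sg2) to 0.43 (sg3'HS1). The HBQ1 entries stood between the 30.7th and the 88.6th percentile of their tables. None of them passed the limma test (adjusted p 0.29 to 0.925). On recovered reads the ratio was positive in 8 tables with a pseudocount scaled to library size (median 0.54). It was positive in 7 with a fixed 1 (median 0.24) and in 1 with a fixed 5 (median -0.56). The comparisons share the controls.

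The highest HBQ1 ratio was with sgHS5, 1.22, from 11, 33 and 27 reads against 3, 4, 0 and 2. Guide levels of 3.58, 3.22 and 3.83 overlapped the controls through sgGal4 replicate 4 at 3.68. The limma difference of 1.72 had an SE of 0.77, a 95% interval of -0.01 to 3.45, an unadjusted p of 0.0506 and an adjusted p of 0.321. With sgHS3 there were 5, 12 and 3 reads against 3, 4, 0 and 2, a ratio of 0.96. With sgHS1-sg2 the guide libraries held 22 and 13 reads against 3, 1, 1 and 3, a ratio of 0.92 and a limma adjusted p of 0.308. There again sgGal4 replicate 4, with 3 reads at a level of 4.77, stood above both guide libraries at 4.52 and 4.69. sg3'HS1 gave 0.90 from 29 and 8 reads against 4, 18, 1 and 5.

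Lower HBQ1 ratios were 0.59 with sgHS4, 0.51 with sgHBB-sg2, 0.42 with sgHS3-sg2 and 0.15 with sgHBG-sg2. The negative ones were -0.06 with sgHS5-sg2 and -0.85 with sgHBD-1kb, where 5 and 2 reads stood against 4, 10, 1 and 3 and the groups overlapped. The sgHBD-1kb table thus held both positive and negative ratios inside the window: 1.22 at 45.5 kb upstream, 1.18 at HS-40, 0.84 between HBA2 and HBA1, -0.85 at HBQ1 and -0.98 at the site 55.6 kb upstream of HBZ. None of these differed from sgGal4 by limma, and the differences between regions were not tested.

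No listed region overlapped HBA1 or HBA2, the adult alpha-globin genes. The nearest was between them, 1421 bp upstream of the HBA1 start (chr16:224959-225258), with sgHBD-1kb alone. It held 8 reads in each guide library against 4, 6, 0 and 1 in sgGal4. The mean level was 3.36 ± 0.27 (n = 2) against 2.57 ± 0.52 (n = 3), a ratio of 0.84 with both guide libraries above all controls and a limma adjusted p of 0.188. The lower guide library stood at 3.17, against 3.16 for the highest control, which had 1 read. Reads aligned to more than 1 place were discarded, per the labels' protocols, and these genes are near copies of each other. Of the 36-base words in GRCh37, 78.2% of those in HBA1 and 79.0% of those in HBA2 recur between positions 60000 and 300000 of the chromosome, and 86.4% of those in the promoter of each. The share was 64.4% in HBZ, 0% in its promoter, 0% in HBQ1 and 0% in every listed region. Low signal at HBA1 and HBA2 and discarded reads cannot be told apart here.

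HBZ, the zeta-globin gene that K562 expresses, had a region just past its end (chr16:204518-204817; the gene spans 202643 to 204502) with sgHS4 alone. There were 11 and 7 reads against 3, 1, 0 and 0. Guide levels of 3.58 and 4.73 lay above all controls, though the lower was only just above the highest control at 3.55, a library with 0 reads. The mean levels were 4.16 ± 0.81 (n = 2) and 3.13 ± 0.70 (n = 3). Over the 4 sgGal4 libraries the ratio was 1.15 with a limma adjusted p of 0.394. With sgGal4 replicates 1 and 2 as 1 library these were 1.04 and 0.595. No listed region lay within 1000 bp of the main start of HBZ, HBM, HBA2, HBA1, MPG (a DNA repair glycosylase), NPRL3 or LUC7L (a splicing factor).

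Among the flanking genes, the paired promoters of POLR3K (a subunit of RNA polymerase III) and SNRNP25 (a protein of the minor spliceosome) gave a ratio of 1.22 with sgHS4 (chr16:103592-103891, on exons of both genes). One guide library supplied nearly all of it, with 29 and 1 reads against 0, 0, 0 and 1. Without guide replicate 1, the library with 29 reads, the ratio was 0.32, and on recovered reads it was 1.47 with a pseudocount scaled to library size, 0.45 with a fixed 1 and -0.85 with a fixed 5. The limma adjusted p was 0.405, and 12.6% of regions in the sgHS4 table had a ratio of 1 or more.

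An intron of RHBDF1, which codes for an inactive rhomboid protein, was listed in 4 tables (chr16:115636-116042, 599 to 706 bp from the start of a short RHBDF1 transcript). Its ratios were 0.33 with sgHS2, 0.28 with sgHS5, 0.12 with the pool and -0.06 with sgHBG, with limma adjusted p of 0.605 to 0.981. Guide libraries held 2 to 29 reads and sgGal4 libraries 1 to 12, and the groups overlapped in all 4. At the other edge of the window, 1619 bp from a LUC7L start (chr16:238630-238929), sgHS5 gave 6, 9 and 7 reads against 1, 15, 1 and 2. That ratio was -0.79, with overlapping groups and a limma adjusted p of 0.827.

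For comparison, the beta-globin cluster, which the guides were aimed at, held 49 entries. The 26 of these that the authors did not tag as on-target had a median ratio of -0.33, against 0.31 in the alpha-globin window. The entries tagged on-target are left out of the first median, while 0 of the 44 window entries were tagged. The sets may also draw on different tables, whose medians over all regions ran from -1.53 to 0.48. The difference was not tested, and it does not rank the recovery of the 2 loci.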

How the data were processed

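The submitters' processing notes name hg19, Bowtie 1.0.0 and Picard, and only reads with 1 alignment were kept, per the labels' protocols. Which peak caller and normalisation were used is not given in the sources used here. The values the authors deposited are, from their form, log2 levels with a scale of their own in each of 17 tables, so all tests stay within a table. Within a column the levels form a line in the log2 of whole numbers; all values came out whole within 0.01, and the number less 1 was taken as the reads.

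The log2 ratio was recomputed from mean linear levels and lay within 1.39e-08 of the authors' M. limma 3.58.1 in R 4.3.3 (empirical Bayes, no trend) compared guide with sgGal4 libraries over all regions of a table, with Benjamini-Hochberg adjustment over the table. A guide with 1 library was taken to vary like sgGal4. The fit was tested on simulated data. Of the 61 samples, 46 were used and 15 were not analysed here. Library totals in the listed regions were 7127 to 432553 reads for guides; they are not full depths. Intervals and floors for shares of reads are exact at 95% or 3 reads, and cover counting error only.

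Genes are from GENCODE 44 lifted to GRCh37. Named with full values were the regions nearest HBZ, HBA1 and HBQ1, those within 1000 bp of a gene start or in the upstream enhancer interval, and the 3 highest and 3 lowest ratios. Likeness was Spearman's rho of read shares over guide libraries. Element names such as HS-40 were given by distance upstream of HBZ. Members and lists were chosen with earlier results of these data known. Alternatives covered pseudocount, low-read filter, variance trend, window borders, left-out libraries and a replicate block. The sequences of some regions are not reported here.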

Additional observations from a re-analysis of the deposited data

Results flagged for a closer look

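At the NPRL3 intron site 55.6 kb upstream of HBZ, sgGal4 replicate 4 stood apart from the other 3 controls, with 0 reads against 14 to 17, 29 to 34 and 2 to 3. Its gap to the nearest control exceeded Dixon's 95% limit in 13 tables. Its log2 level was 2.7 in the sg3'HS1 table, 3.29 in sgHBB, 3.08 in sgHBB-sg2, 2.35 in sgHBD-1kb and 2.52 in sgHBG-sg2. It was 3.15 in sgHS1-sg2, 2.58 in sgHS2, 2.87 in sgHS2-sg2 and in sgHS5-sg2, and 2.3 in sgHS3. It was 3.24 in sgHS3-sg2, 3.52 in sgHS4 and 1.96 in sgHS5. These 13 are the same library and the same absence of reads listed again, not separate events. In total, 52 groups of 4 or more libraries were tested, and chance flags about 1 in 20 of them if the libraries are independent. sgGal4 replicates 1 and 2, counted as 1 sample in the means, entered the Dixon test as separate values. That rate may therefore not hold here. With 5829 reads in the loci common to all tables, this library's exact 95% interval at the site reached 6.33 reads per 10000, above the 3.66 to 4.9 of the other controls.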

How the results depend on the processing

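Without 1 library at a time, the number called ran from 0 to 2, the number at a ratio of 1 or more from 3 to 16, the median ratio from 0.18 to 0.41 and the lowest adjusted p from 0.0282 to 0.106. The 2 calls came without sgGal4 replicate 4 (sgHBB 55.6 kb upstream of HBZ, and the pool at HS-33), as did the count of 16; the counts of 3 and 4 came without sgGal4 replicates 1 and 2. The share of all entries at a ratio of 1 or more was then 24.9%, 13.3% and 13.1%. Leaving out sgGal4 replicates 3 and 4 gave 12 calls (lowest limma adjusted p 0.000489), 10 higher and 2 lower, against 24.4% and 14.4% of all entries. It gave 20 at a ratio of 1 or more, against 37.2% of all entries, and a median of 0.77. The calls rest on the controls that were counted as 1 sample. A limma variance trend gave 1 call (sgHBB, lower; adjusted p 0.0245), against 2.84% higher and 11.6% lower of all entries.

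On recovered reads, a pseudocount of 1 left 0 at a ratio of 1 or more (8.71% of all entries) and a median of -0.03. A pseudocount of 5 left 0 (0.724% of all entries) and -0.75. The median of the table medians over all regions moved with them, from -0.17 to -0.44 and -0.86. With a pseudocount scaled to library size, 8 were at a ratio of 1 or more (20.6% of all entries) and the median was 0.24. Merging sgGal4 replicates 1 and 2, or 3 close library pairs (these 2, pool replicates 1 and 2, and sgHS5 replicates 2 and 3), left 4 at a ratio of 1 or more; these alternatives, the scaled pseudocount and the permutation test with merged libraries were chosen after seeing the data. A wider window (50000 to 300000) held 61 entries, with 1 call (higher) and 14 at a ratio of 1 or more. A narrower one, from the enhancers to HBQ1, had 7 of 21 and a median of 0.88. It leaves out the site 55.6 kb upstream of HBZ. Of all entries, 17.3% had a ratio of 1 or more and 1.66% were called higher.

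No pairing of libraries by replicate number was seen: correlations of deviations ran from -0.25 to 0.219. The check cannot exclude a pairing. With 2 guide libraries their deviations mirror each other, and sgGal4 replicates 1 and 2 were alike within sampling noise in 16 of 17 tables. With a replicate block, 5 of 40 entries were called, 4 higher and 1 lower (lowest adjusted p 0.000119), against 12.6% higher and 9.48% lower of all entries. The 5 calls were in tables with 2 guide libraries, where sgGal4 replicates 3 and 4 share a block with no guide library. Their limma differences equalled those with sgGal4 replicates 3 and 4 left out. They thus rest on the controls that were counted as 1 sample. The cause of the shifts between settings was not tested. With the pseudocount of 5, sgHS4 at the POLR3K and SNRNP25 promoters, sgHBD-1kb 45.5 kb upstream of HBZ and sg3'HS1 at HS-33 had negative ratios, of -0.85, -0.52 and -0.44; with the scaled pseudocount they had 1.47, 1.18 and 1.12. By construction a fixed pseudocount weighs most in the shallow libraries. At 0 to 5 reads per region in sgGal4 replicates 3 and 4, small excesses were not detectable.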
